A study of Mus musculus with 2 samples.

Results

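The Hox cluster genes are the protein-coding genes named Hox with a letter from a to d and a number from 1 to 13, and 39 such genes were found among 43346 annotated genes, of which 21474 are protein-coding. They lie in 4 clusters, with 11 genes in Hoxa on chromosome 6, 10 in Hoxb on chromosome 11, 9 in Hoxc on chromosome 15 and 9 in Hoxd on chromosome 2 (GRCm38). Their levels were read from RNA sequencing of whole liver of healthy B6NCrl mouse embryos at day 13.5, collected without treatment or genetic change as pools of both sexes. The series holds 1 group with 2 biological replicates, which are separate tissue samples under 1 donor entry, so every SD below (n = 2) covers no more than the variation of these samples, which may be technical. With nothing to set the liver against, results are levels and ratios without p-values. The input was 10 ng of total RNA above 200 nt a library. The libraries held 39182457 and 37432977 expected counts on annotated genes, so that 1 TPM, the abundance corrected for transcript length and library size, was worth 72.0 and 64.6 counts for a transcript of 2000 nt. A count of 0 allows up to 3 counts as a one-sided 95% limit, which is 0.0417 TPM in replicate 1 and 0.0464 TPM in replicate 2 at that length. The two-sided 95% Poisson interval given for single counts ends higher, at 3.69 for a count of 0. These limits and all intervals below cover counting error only.

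Hox genes encode transcription factors with a homeodomain, a DNA-binding domain that they share with many other developmental regulators. In each cluster the genes stand in the order of their paralog group, the number in the name. Genes at the 3' end, with low numbers, are switched on earlier and farther forward in the embryo than genes at the 5' end, with high numbers. In blood formation, Hoxa and Hoxb genes are known to be active in stem and progenitor cells and to be shut down as the cells mature. The fetal liver is the main site of blood formation at this age. All 10 erythroid markers listed were at 1 TPM or more in both libraries, among them Alas2 (892 TPM) and Slc4a1 (739 TPM), and so were all 12 hepatoblast markers, led by Afp (6219 TPM), Trf (3043 TPM) and Apoa1 (1997 TPM).

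Hox transcripts were scarce in this tissue. The 39 genes together reached 7.52 TPM in replicate 1 and 7.67 TPM in replicate 2, a mean of 7.595 ± 0.106 TPM, from 479.75 and 467.8 expected counts. The median Hox gene was at 0.06 and 0.07 TPM, against 1.37 and 1.51 TPM for the median protein-coding gene. A single Hox gene, Hoxb2, was at 1 TPM or more in both libraries, which is 2.56% of the 39, while 52.1% of all protein-coding genes were. More than 3 counts in both libraries were found for 19 Hox genes, or 48.7%, against 68.7% of protein-coding genes. No count in either library was found for 11 Hox genes, or 28.2%, against 20.5% of protein-coding genes. In whole tissue, fewer cells of a type and less RNA per cell cannot be told apart, so these levels do not separate a gene that is low in most cells from a gene that is used by a few.

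**Figure D1:**
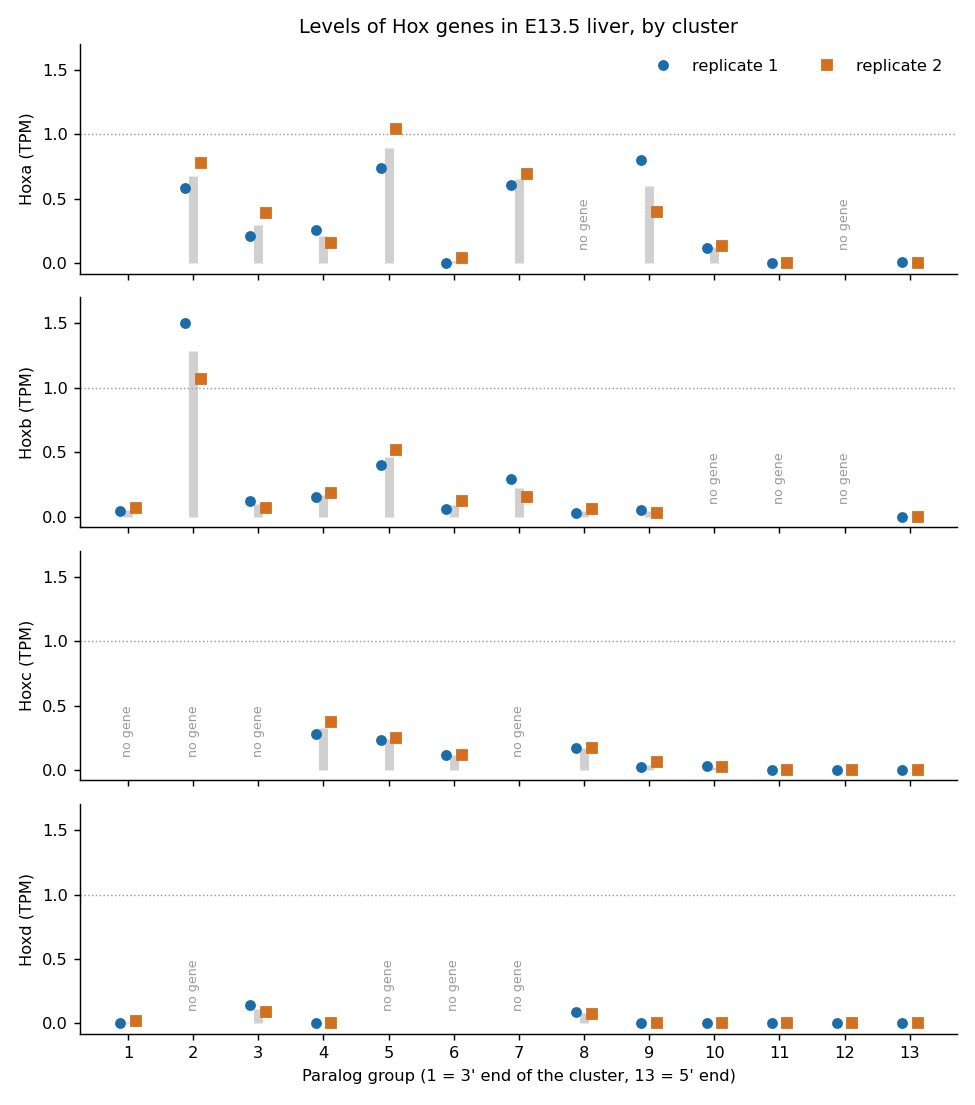
TPM of the Hox genes named in the text or at the edge of detection (y axis) by paralog group (x axis) in the 4 clusters, with a circle for replicate 1, a square for replicate 2 and a grey bar from 0 to their mean; "no gene" marks positions that the mouse clusters lack. Hoxb2 is above the dotted line at 1 TPM in both libraries, Hoxa5 in replicate 2, and groups 11 and 12 are at 0 in every cluster that has them.

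Hoxb2, which patterns the hindbrain and facial motor neurons, was the most abundant member (ENSMUSG00000075588.6, chromosome 11, 96350525 to 96354012, plus strand). Replicate 1 gave 1.5 TPM (94.05 counts, 95% Poisson interval 76.0 to 115) and replicate 2 gave 1.07 TPM (58.74 counts, 44.9 to 76.1). Its mean of 1.285 ± 0.304 TPM was higher than that of 49.0% of protein-coding genes, so the leading Hox gene stood near the middle of the protein-coding genes. Hoxb3os, an antisense RNA, spans the whole of Hoxb2, and no source used here says whether counting used the strand. The authors' model gave the Hoxb2 count a posterior SD of 7.06 and 5.75 counts, above that of every other Hox gene, so the division of reads between the pair is uncertain.

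Hoxa5, which patterns the neck and trunk skeleton and is needed for lung development, came next (ENSMUSG00000038253.6, chromosome 6, 52201754 to 52204587, minus strand). Its libraries gave 0.74 TPM (50 counts, replicate 1) and 1.04 TPM (63 counts, replicate 2). The TPM ranges of Hoxb2 and Hoxa5 over the libraries did not overlap, but in replicate 2 they were close, at 1.07 and 1.04 TPM. By counts Hoxa5 was higher in that library (63 against 58.74), with overlapping Poisson intervals (48.4 to 80.6 and 44.9 to 76.1). Hoxa2, which specifies the skeleton of the branchial arches, followed at 0.58 and 0.78 TPM, and Hoxa7 at 0.61 and 0.69 TPM. Hoxa9, known for its role in blood stem cells and in leukaemia, had 0.80 TPM in the first library and 0.40 TPM in the other. Hoxb5, which is used in mouse studies as a marker of long-term blood stem cells, was at 0.40 and 0.52 TPM. From Hoxa5 down to Hoxb5 each gene overlapped the next in its range, so the order among them is not resolved. Hoxb5 and Hoxc4 (0.28 and 0.37 TPM) did not overlap in TPM range, but the Poisson intervals of their counts (27 and 33, against 20 and 24) overlapped in each library. Below them down to rank 12 all neighbours in the order overlapped in TPM range.

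The other detected members were below 0.5 TPM. Hoxa3, needed for the thymus and parathyroid, was at 0.21 and 0.39 TPM. Hoxc5 was at 0.23 and 0.25 TPM. Hoxb7 was at 0.29 and 0.15 TPM, and Hoxa4 at 0.26 and 0.16 TPM. Hoxb4, which expands blood stem cells when forced on in culture, was at 0.15 and 0.18 TPM (14 and 15 counts). These levels lie close together, and none of the genes had 50 counts in either library. Hoxa10, another regulator of blood progenitors, was at 0.12 and 0.13 TPM (7 and 8 counts). Hoxc8 stood at 0.17 TPM in both libraries and Hoxc6 at 0.12 TPM in both. Hoxb3, Hoxd3 and Hoxd8 were between 0.07 and 0.14 TPM in either library, from 6 to 8 counts each. With so few counts, differences among the last 6 genes named were not detectable at this depth.

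A further 9 Hox genes lay at the edge of detection. Hoxb1, Hoxb6, Hoxb9 and Hoxc9 exceeded 3 counts in 1 of the 2 libraries, and the highest of their counts was 5. Hoxa6, Hoxa13, Hoxb8, Hoxc10 and Hoxd1 stayed at 3 counts or fewer in both. The 11 genes with no count were Hoxa11, Hoxb13, Hoxc11, Hoxc12, Hoxc13, Hoxd4, Hoxd9, Hoxd10, Hoxd11, Hoxd12 and Hoxd13. Hoxd4 shares its annotated span with Hoxd3, but the authors' model gave it a posterior SD of 0 counts in both libraries. Hoxd3 had posterior SDs of 1.01 and 0.99 counts, as did Gm28230, a protein-coding gene with no count inside the Hoxd3 span. Most of the genes with few or no counts are known from the rear of the body and the ends of the limbs. Hoxd13 and Hoxa13 pattern the digits, hindgut and genital tract, Hoxa11 and Hoxd11 the forearm and kidney, and Hoxc13 hair and nails.

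The Hoxa cluster carried the largest part of the signal. Its genes summed to 3.80 TPM in replicate 1 and 4.23 TPM in replicate 2, or 52.8% ± 3.27 of all Hox TPM. By expected counts its share was 50.7%, and by posterior mean TPM 50.1%. Hoxb followed with 2.64 and 2.27 TPM, or 32.4% ± 3.90. Hoxc gave 0.85 and 0.99 TPM, or 12.1% ± 1.13, and Hoxd gave 0.23 and 0.18 TPM, or 2.70% ± 0.503. By posterior mean TPM the Hoxd share was 6.49%. That measure gives small values to genes with no count. It was also higher than TPM for Hoxd3 (0.30 and 0.26 against 0.14 and 0.09) and Hoxd8 (0.21 and 0.19 against 0.09 and 0.07). The order of the clusters was the same in both libraries, and the ranges of the 4 shares did not overlap. More than 3 counts in both libraries were found for 8 of 11 Hoxa genes, 5 of 10 Hoxb genes, 4 of 9 Hoxc genes and 2 of 9 Hoxd genes. No count was found for 6 of the 9 Hoxd genes, including all 5 from Hoxd9 to Hoxd13.

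Each cluster had its own leading gene. Hoxb2 made up 52.0% ± 6.85 of Hoxb and Hoxd3 55.4% ± 7.69 of Hoxd on the mean of the libraries. In replicate 1 these shares were 56.8% and 60.9%, in replicate 2 they were 47.1% and 50%, by posterior mean TPM 42.8% and 43.7% and by counts 50.2% and 48.3%. Hoxa was spread more evenly, with Hoxa5 at 22.0% ± 3.62 of its sum, and in replicate 1 Hoxa9 was above Hoxa5. Hoxc4 led Hoxc with 35.2% ± 3.13, although by expected counts, which grow with transcript length, Hoxc5 was higher. Hoxd3 rests on 7 counts in each library, so its lead is a matter of few reads.

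Detection fell along the clusters from the 3' to the 5' end. None of the 8 genes of paralog groups 1 to 3 lacked a count, 1 of the 15 genes of groups 4 to 8 did, and 10 of the 16 genes of groups 9 to 13 did. Groups 4 to 8 held 48.5% ± 4.07 of Hox TPM, groups 1 to 3 held 40.5% ± 0.286 and groups 9 to 13 held 11.02% ± 3.78. The share of the last class came mostly from Hoxa9. Without regard to cluster, group 2 (Hoxa2 and Hoxb2) had the largest sum, 2.08 and 1.85 TPM, or 25.9% ± 2.50 of all Hox TPM. Group 5 (Hoxa5, Hoxb5 and Hoxc5) was next with 1.37 and 1.81 TPM, or 20.9% ± 3.80. The TPM ranges of these groups over the libraries did not overlap. Their counts did, with 129.05 and 100.74 for group 2 and 102 and 120 for group 5. Groups 11 and 12 had no count in any of their 5 genes, and group 13 had 1 count, in Hoxa13 of replicate 1.

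The step from detected to undetected genes fell at different places. In Hoxa, Hoxa9 and Hoxa10 were still above 3 counts in both libraries and Hoxa11 had none. In Hoxb the last gene above 3 counts in both was Hoxb7, in Hoxc it was Hoxc8 and in Hoxd it was Hoxd8. Between them were gaps. Hoxa6, with a transcript of 874 nt, had 0 and 1 count (0 and 0.04 TPM), although Hoxa5 (50 and 63 counts) and Hoxa7 (34 and 26.19 counts) on either side were among the highest. Hoxa6 therefore stood apart from its neighbours by more than their counting error, with upper Poisson limits of 3.69 and 5.57 counts. Hoxd1, at the 3' end of Hoxd, had 0 and 1 count, and Hoxb1, at the 3' end of Hoxb, had 3 and 4.

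CpG-rich promoters were present at both ends of this range of levels. Promoter windows of 300 bases, from 250 before to 50 after the transcript start, were available from RefSeq (GRCm38.p6) for 22 of the 39 genes, in 24 windows. The ratio of observed to expected CpG was 0.6 or more in 12 of these 24 windows, or 50%, against 35.8% of all 32851 promoter windows, and its median was 0.63 in Hox windows and 0.38 in all windows. The median was 0.57 for the 7 windowed Hox genes with no count and 0.59 for the 10 with more than 3 counts in both libraries. The ranges of these classes overlapped. The windowed genes between them differed from both medians. Hoxa6, Hoxa13, Hoxb8 and Hoxd1, at 3 counts or fewer in both libraries, had high ratios of 0.92, 0.92, 0.97 and 0.80. Hoxb1, above 3 counts in 1 library, had a ratio of 0.38. A relation of ratio and level was not tested. The 250 bases before the start are shown for Hoxa5 (chr6:52204588-52204837, minus strand), the highest gene with a window, and for Hoxd13 (chr2:74667975-74668224, plus strand), which had no count. Capitals mark CpG, of which the stretch of Hoxa5 holds 28 and that of Hoxd13 holds 31.
Hoxa5: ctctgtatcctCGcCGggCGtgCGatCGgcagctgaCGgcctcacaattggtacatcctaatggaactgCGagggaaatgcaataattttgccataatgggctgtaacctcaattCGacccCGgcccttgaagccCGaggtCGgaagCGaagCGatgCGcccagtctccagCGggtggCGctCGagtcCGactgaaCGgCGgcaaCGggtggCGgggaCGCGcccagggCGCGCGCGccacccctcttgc
Hoxd13: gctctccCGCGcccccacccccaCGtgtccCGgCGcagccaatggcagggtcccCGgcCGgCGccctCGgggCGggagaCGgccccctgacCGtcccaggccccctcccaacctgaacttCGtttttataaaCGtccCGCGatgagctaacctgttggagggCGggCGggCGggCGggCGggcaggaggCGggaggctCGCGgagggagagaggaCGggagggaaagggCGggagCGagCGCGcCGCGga
Both stretches are densely set with CpG, although the genes stood at 0.89 TPM and at no count. Hoxd13 was chosen for the highest ratio among the genes with no count, so the pair is an example and says nothing of how often this occurs. Other genes that depart from a common order of ratio and level, chosen after their values were seen, were Hoxa9 and Hoxa7, with ratios of 0.28 and 0.41 at 0.60 and 0.65 TPM, and Hoxa13, with a ratio of 0.92 and a single count.

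**Figure D2:**
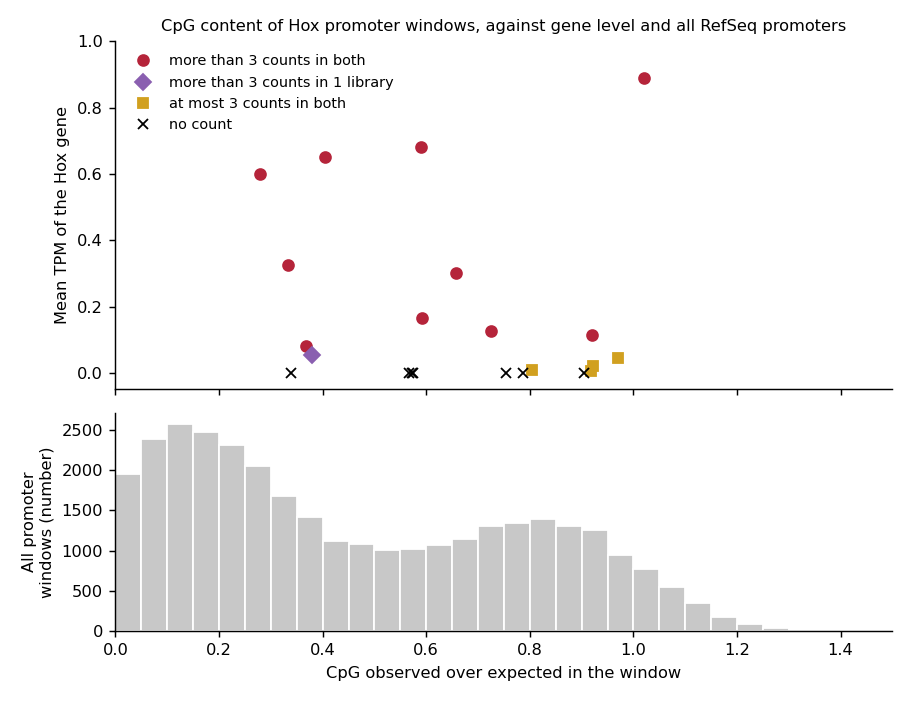
Upper plot, mean TPM of each of the 22 Hox genes with a promoter window (y axis) against the ratio of observed to expected CpG in it (x axis), averaged where a gene has 2 windows, with symbols for 4 classes of detection. The lower plot gives the number of all RefSeq promoter windows by the same ratio, with 2 windows above 1.5 not drawn. Genes with no count and genes with more than 3 counts in both libraries cover overlapping ranges of the ratio. Genes with at most 3 counts in both lie from 0.80 to 0.97.

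Short motifs were searched on both strands of the windows. The letters TATAAA, those of a TATA box, were in 4 of 24 Hox windows (Hoxa10, Hoxb8, Hoxd4 and Hoxd13), or 16.7%, against 13.6% of all windows. TGACAG, the core bound by Meis and Pknox proteins, was in 2 (Hoxa2 and Hoxa3), or 8.33%, against 19.2% of all windows. TGATNNAT, the composite bound by Pbx together with a Hox protein, was in 4 (Hoxa2, Hoxb1, Hoxb8 and Hoxd11), or 16.7%, against 8.85% of all windows. With 24 windows these counts are descriptions. The last 2 motifs share their first letters, and a match names no site in use.

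The replicates gave nearly the same Hox total. The ratio of summed Hox counts, replicate 2 over replicate 1 after scaling by trimmed mean of M values (TMM), was 0.978, with an exact 95% counting interval from 0.859 to 1.11. By cluster the ratio was 1.09 (0.908 to 1.31) for Hoxa, 0.808 (0.640 to 1.02) for Hoxb, 1.03 (0.729 to 1.46) for Hoxc and 0.936 (0.419 to 2.08) for Hoxd. All of these intervals include 1. Of the 13 Hox genes whose mean count reached 10, 7 were higher and 6 lower in replicate 2, with a median log2 ratio of 0.10 against 0.00 for all 15997 genes at that minimum. With spike-in scaling 1 of the 13 was higher and 12 were lower, at a median of -0.54, and the median of all genes moved to -0.64. The median absolute log2 ratio of the 13 Hox genes was 0.29, against 0.33 for all genes with a mean count from 10 to 100.

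Ratios of these 13 genes ranged on the log2 scale from -0.87 (Hoxa4) to 0.81 (Hoxa3). The counting interval left out 1 for Hoxb2 (ratio 0.627, 0.447 to 0.881) and Hoxa3 (ratio 1.78, 1.01 to 3.47). These are 2 of 13, or 15.4%, against 14.3% of all genes with a mean count from 10 to 100 and 39% of all genes from 10 counts up, so the share is near the background. Of the 2 Hox genes that had 50 counts or more in each library, Hoxb2 and Hoxa5, neither was more than 2-fold apart, and 0.245% of all such genes were. The libraries also differed in heart markers, of which Tbx20 was lower in replicate 2, Myl4 had 115 counts in each library and the others were higher in replicate 2. The 10 heart markers summed to 42.3 TPM in replicate 1 and 110 TPM in replicate 2, and Nkx2-5, a defining heart regulator, had 2 and 39 counts. The Hox sums of these libraries were 7.52 and 7.67 TPM, and the part of heart tissue in the Hox levels was not tested.

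**Figure D3:**
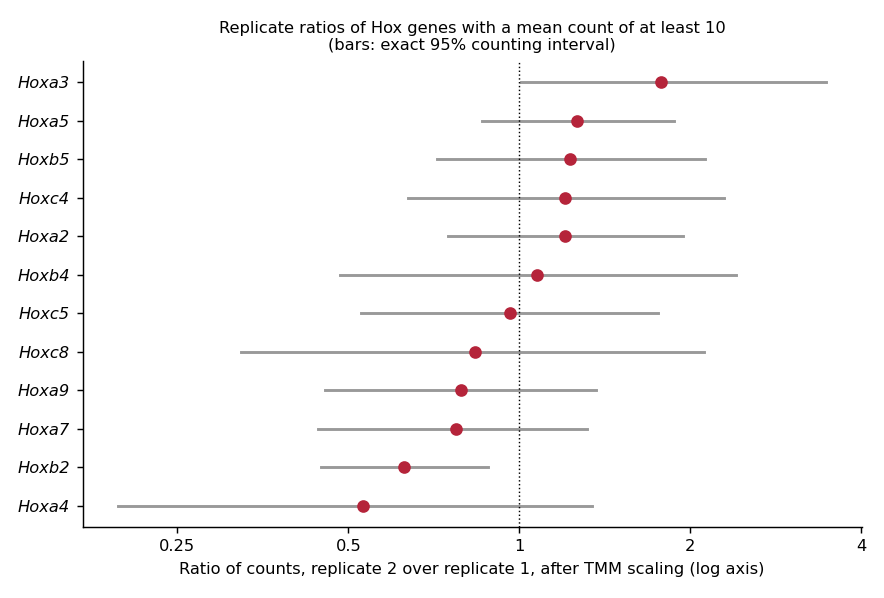
Ratio of expected counts, replicate 2 over replicate 1 after TMM scaling, on a log axis for named Hox genes whose mean count reached 10, with bars for the exact 95% counting interval. Points lie on both sides of the dotted line at 1, and the bars of Hoxb2 and Hoxa3 do not reach it.

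The transcript tables resolve isoforms for few members, since a share of a small count is itself uncertain. For Hoxb2, the only multi-transcript gene with 50 counts or more in each library, the coding transcript Hoxb2-201 made up 91.3% and 94.4% of its TPM, and the remainder fell on Hoxb2-202, annotated as a retained intron. With a minimum of 10 counts, which was chosen after the data were seen, 9 genes could be read and 7 of them had the same leading transcript in both libraries. Hoxa7 and Hoxa9 did not. For Hoxa7, the transcript Hoxa7-205, annotated as a target of nonsense-mediated decay, led in replicate 1 with 50.8%, and the short coding transcript Hoxa7-202 led in replicate 2 with 39.1%. For Hoxa9, the transcript Hoxa9-203, annotated as a processed transcript, led in replicate 1 with 56.3%, and the coding transcript Hoxa9-201 led in replicate 2 with 51.3%. Hoxa9-203 is 678 nt long and Hoxa9-201 is 3226 nt long. Hoxa9 had 33 counts in replicate 1 and 26 in replicate 2, while its TPM was 0.80 and 0.40. The ratio of replicate 2 over replicate 1 was thus 0.790 for scaled counts and 0.50 for TPM, a measure that divides by the length of the transcripts to which reads were assigned. By counts Hoxa9-201 held 66.4% of the gene on average.

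Noncoding genes inside the cluster spans took a smaller part of the counts than the Hox genes, but a larger part of the TPM (53.1%), which weights short RNAs more. Of 42 such genes, 13 had a count in at least 1 library, and together they held 20.8% and 21.8% of the counts on Hox and noncoding genes in the spans, or 21.3% ± 0.673. Hoxb3os, antisense to Hoxb2 and Hoxb3, was the highest with 31.71 and 38 counts (0.42 and 0.57 TPM). Hotairm1, an RNA of the 3' end of Hoxa known from human myeloid cells, had 30 and 18 counts. At an average transcript length of 323 nt in replicate 1 these gave 3.54 and 1.94 TPM, above any Hox gene in each library. So was Gm27477, an RNA of 143 nt in the Hoxa span, at 2.40 and 2.67 TPM from 4 counts in each library. The larger noncoding part of the TPM thus rests partly on few reads assigned to short transcripts. The pseudogene Gm11539 had 19.94 and 22.05 counts, and as a processed copy its reads may belong to its parent gene. Hoxaas2 had 15.55 and 22.33 counts, Hoxaas3 had 11 and 9.81, and Gm15050 had 9 in each library, all in the Hoxa span. Hoxaas3 overlaps several genes from Hoxa3 to Hoxa7 on the other strand. Its posterior SDs of 0.62 and 0.83 counts equalled those of Hoxa7. Hoxaas2, which overlaps Hoxa3 on the other strand, had 0.83 and 2.33 counts, beside 0.83 and 2.37 for Hoxa3. Whether the model divided reads between the strands was not tested, so the counts of these overlapping genes may include shared reads. In the Hoxc span all 7 noncoding genes had no count, among them Hotair, an RNA known from human cells for acting on the Hoxd cluster in trans.

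The clusters also carry microRNA genes, whose products target transcripts that include those of Hox genes. All 6 hairpins in the spans had no count, in libraries of RNA longer than 200 nt that leave out RNAs of their length. The mature RNAs are shown because the same seed recurs in different clusters. Capitals mark the seed (bases 2 to 8), and sequences and positions are from RefSeq (GRCm38.p6).
miR-10a-5p (Hoxb): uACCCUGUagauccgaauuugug
miR-10b-5p (Hoxd): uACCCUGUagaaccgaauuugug
miR-196a-5p (Hoxb and Hoxc): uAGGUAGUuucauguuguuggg
miR-196b-5p (Hoxa): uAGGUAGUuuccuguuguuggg
The miR-10 pair differs by 1 base (U12A, miR-10a-5p to miR-10b-5p, counted from 1 at the 5' end) and the miR-196 pair by 1 base (A12C, miR-196a-5p to miR-196b-5p). Neither difference lies in the seed.

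The genes around the clusters were expressed at much higher levels than the genes within them. The Hox median on the scale of log2(TPM + 0.1) was -2.64 in replicate 1 and -2.56 in replicate 2, against 4.82 and 5.13 for the 24 nearest protein-coding neighbours, 3 on each side of each cluster, so that the difference, Hox minus neighbours, was -7.58 ± 0.15. Of the 24 neighbours, 21 were at 1 TPM or more in both libraries. On either side of Hoxd, Mtx2, a mitochondrial outer membrane protein gene 60.7 kb away, stood at 67.1 ± 2.71 TPM and Lnpk, 88.9 kb away, at 22.7 ± 4.78 TPM. The Hoxb side was an exception, since Ttll6 (28.9 kb away) and Calcoco2 (82.4 kb away) on the 5' side had no count and Skap1, a T cell adaptor gene on the 3' side, was at 0.22 ± 0.042 TPM.

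The same gene families recur around different clusters, which arose from 1 ancestral cluster by duplication. Atp5g1, Atp5g2 and Atp5g3, which encode the same subunit of the mitochondrial ATP synthase, stood at 548, 95.9 and 792 TPM beside Hoxb, Hoxc and Hoxd. Cbx3, Cbx1 and Cbx5, the heterochromatin protein genes, stood at 275, 44.6 and 62.4 TPM beside Hoxa, Hoxb and Hoxc. Hnrnpa1 and Hnrnpa3, which encode RNA-binding proteins, stood at 403 and 156 TPM beside Hoxc and Hoxd. Skap2 beside Hoxa was at 20.8 TPM, Snx10 and Snx11 beside Hoxa and Hoxb were at 5.20 and 9.09 TPM, and Calcoco1 beside Hoxc was at 8.90 TPM. Atf7 and Atf2, beside Hoxc and Hoxd, were at 7.93 and 20.995 TPM. Of the remaining neighbours, Hibadh was at 59.5, Tax1bp1 at 94.9, Jazf1 at 1.40, Smug1 at 4.85 and Nfe2l2 at 44.3 TPM. Evx1 and Evx2, which stand at the 5' ends of Hoxa and Hoxd and were not counted as neighbours, were at 0.02 TPM and at no count.

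**Figure D4:**
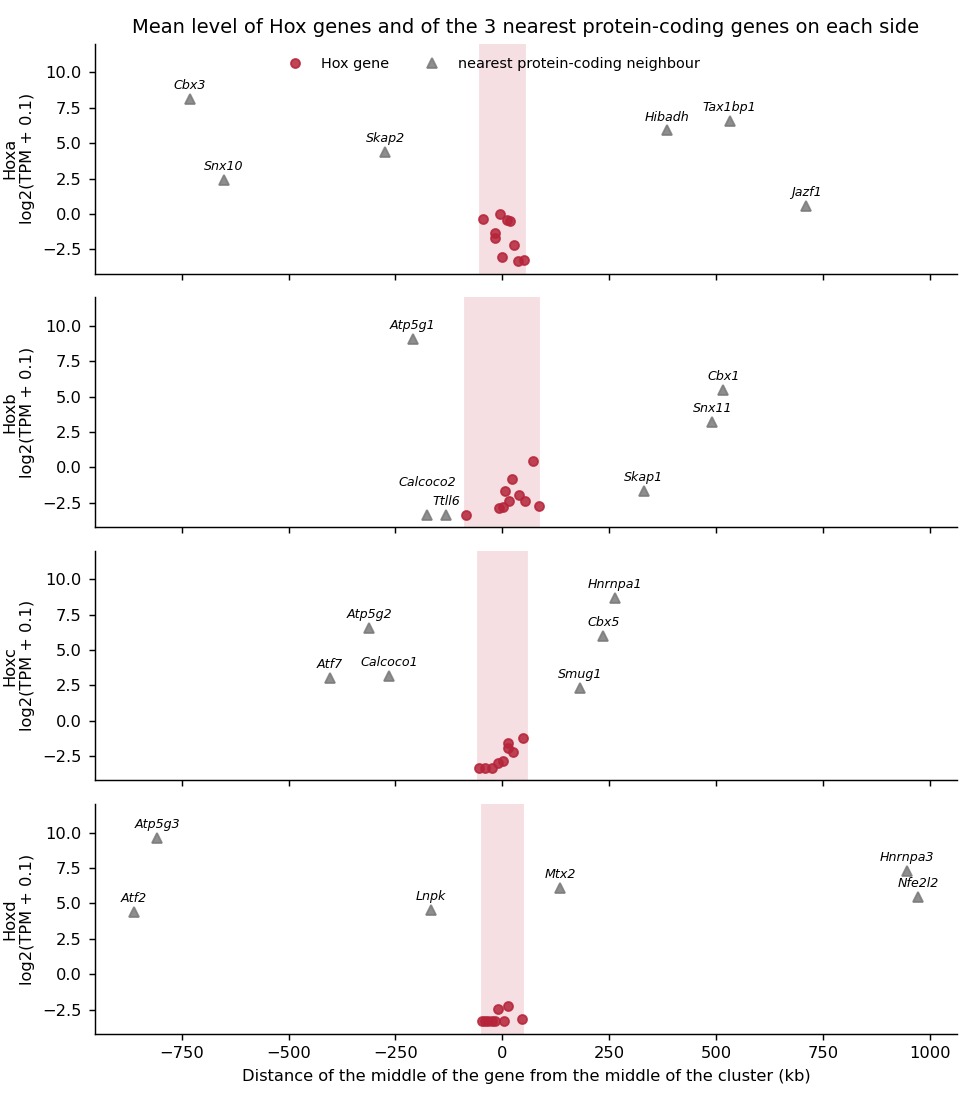
Mean level, log2(TPM + 0.1), of the Hox genes (circles) and of the 3 nearest protein-coding genes on each side (triangles, named) against the distance in kb from the middle of each cluster, with the cluster span shaded. Every neighbour of Hoxa, Hoxc and Hoxd lies above every Hox gene of that cluster, and beside Hoxb the neighbours Ttll6, Calcoco2 and Skap1 do not.

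Transcripts of proteins that bind DNA together with Hox proteins were far more abundant than those of the Hox genes. The TALE homeobox genes (Pbx, Meis and Pknox) had a median of 2.88 and 2.80 TPM, and 8 of 9 were at 1 TPM or more in both libraries. Meis1, a partner of Hoxa9 in blood stem cells and leukaemia, stood at 10.5 ± 1.18 TPM, Pknox1 at 9.73 ± 1.05 TPM and Pbx3 at 8.06 ± 1.39 TPM. Pknox2, at 0.37 TPM, was the member below the level. On the log2(TPM + 0.1) scale the difference of the medians, Hox minus TALE, was -4.22 in replicate 1 and -4.09 in replicate 2, a mean of -4.16 ± 0.09. Related homeobox genes outside the clusters were low as well, and the difference of medians, Hox minus these genes, was 0.58 ± 0.06 on the same scale. None of the 9 ParaHox, Evx and Mnx genes was at 1 TPM, and the highest were Pdx1 at 0.045 TPM, Cdx1 at 0.035 TPM and Evx1 at 0.020 TPM.

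Chromatin regulators that keep Hox genes on or off were well represented. Trithorax-type activators, which include the methyltransferase Kmt2a and its partners Men1 and Psip1, maintain Hox transcription, and Polycomb proteins hold silent Hox genes in a repressed state. All 19 activators listed were at 1 TPM or more in both libraries, with a median of 9.79 and 13.8 TPM. The highest were Dpy30 at 158 ± 15.2 TPM, Mllt3 at 99.9 ± 5.53 TPM and Psip1 at 58.9 ± 7.01 TPM. Of the 22 Polycomb genes, 21 reached the level in both libraries and Cbx7 in 1 (0.80 and 1.21 TPM), with a median of 5.28 and 6.69 TPM. Rbbp4 at 281 ± 30.6 TPM and Rbbp7 at 252 ± 20.2 TPM, which also serve in other complexes, were the highest, followed by the methyltransferase Ezh2 at 56.4 ± 6.90 TPM. The difference of medians was -6.15 ± 0.29 for Hox genes minus activators and -5.19 ± 0.18 for Hox genes minus Polycomb genes.

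Retinoic acid is a main inducer of the 3' Hox genes in the embryo. Of 18 genes of its pathway, 12 were at 1 TPM or more in both libraries and 6 were below in both, with a median of 2.17 and 2.59 TPM. The reductase gene Dhrs3 stood at 25.1 ± 3.93 TPM and the receptor gene Rxrb at 15.6 ± 0.304 TPM. The receptor genes Rara, Rarb and Rarg stood at 3.22, 3.73 and 2.47 TPM, and Aldh1a2, which makes retinoic acid in the embryo, at 2.15 TPM. The Cyp26 genes, whose enzymes break it down, were all below 1 TPM, with Cyp26a1 the highest at 0.195 TPM.

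**Figure D5:**
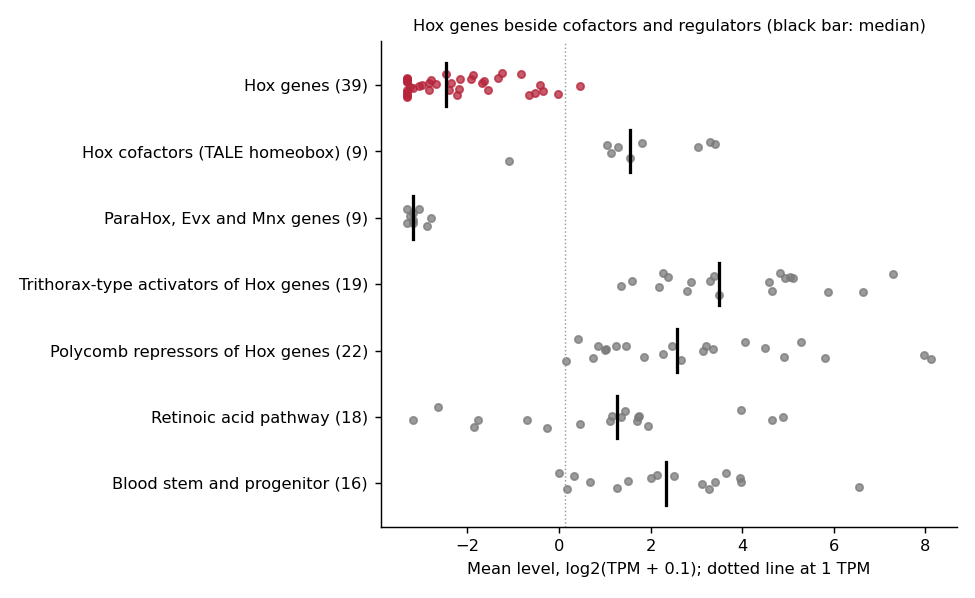
Mean level, log2(TPM + 0.1), of each gene (points) in the Hox clusters and in 6 lists of cofactors, regulators and blood stem cell markers, with the number of genes in brackets and a black bar at the median. Most Hox genes lie left of the dotted line at 1 TPM, as do all ParaHox, Evx and Mnx genes, and most genes of the other lists lie right of it.

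Markers of the cells in which Hox genes are known to be used were compared at the level of lists. Of 16 markers of blood stem and progenitor cells, 13 were at 1 TPM or more in both libraries, led by Gfi1b (94.2 TPM), which red cell and platelet precursors also express, Cd34 (15.6 TPM) and Myb (15.5 TPM). Mecom, Erg and Procr reached 1 TPM in replicate 2 only. All 10 sinusoidal endothelial markers did so in both libraries, led by Lyve1 (25.3 TPM), Oit3 (20.4 TPM) and Eng (19.7 TPM), as did 11 of 12 stellate and mesenchymal markers, led by Col3a1 (116 TPM), Col1a1 (75.6 TPM) and Col1a2 (48.8 TPM). Of 8 mesothelial markers, 6 did so, led by Podxl (10.9 TPM), Upk3b (4.94 TPM) and Krt19 (3.10 TPM), and Lrrn4 in replicate 2 only. Which of these cells the Hox reads came from was not tested.

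Markers of tissues that lie near the liver and use many Hox genes were mostly below 1 TPM, but the list medians were near or above the Hox median. Limb and somite markers summed to 2.51 and 2.60 TPM, led by Hand2 (0.755 TPM), also on the stellate and mesenchymal list, Meox1 (0.555 TPM) and Meox2 (0.395 TPM). None of these 10 was at 1 TPM. Of 10 kidney and gonadal ridge markers 1 was, Gata4 (7.05 TPM), which the liver mesenchyme also expresses, followed by Sall1 (0.835 TPM). That list summed to 7.89 and 9.35 TPM, and Nr5a1 had no count. Of 10 spinal cord, neuron and neural crest markers, Stmn2 (3.83 TPM) and Tubb3 (1.51 TPM) were, and Map2 (1.00 TPM) in replicate 2 only, with sums of 8.53 and 6.55 TPM and no count of Olig2. Skeletal muscle and body wall markers were higher, with 5 of 10 at the level in both libraries and sums of 67.1 and 51.2 TPM. Mylpf (34.3 TPM), Acta1 (12.3 TPM) and Tnnc2 (6.06 TPM) led them, and Myod1 reached 1 TPM in replicate 1 only. Of the 8 muscle genes whose mean count reached 10, 7 were lower in replicate 2 and Myf5 had 21 counts in each library, with a median log2 ratio of -0.67. On the log2(TPM + 0.1) scale the difference of medians, Hox minus list, was -0.04 ± 0.09 for kidney and gonadal ridge (-0.10 in replicate 1 and 0.02 in replicate 2). It was -0.50 ± 0.09 for limb and somite, -0.89 ± 0.43 for spinal cord, neuron and neural crest and -2.95 ± 0.32 for muscle. The part of these tissues in the Hox levels was not tested.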

How the data were processed

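Total RNA of 2 liver libraries was quantified by the authors in 1 table of genes and 1 of transcripts per library. Reads were assigned to mouse build mm10 with GENCODE release M4, per the deposited readme, and no source used here names the aligner or the use of strand. Expected counts are the authors' estimates of reads per gene or transcript, with reads that fit several genes divided by a model, per the file headers. TPM values were normalised by the authors within each library, with 96 spike-ins and 26248 transfer RNA entries in the same total. The posterior SD of each count, a score in counts, was deposited beside it.

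Symbols, coordinates and transcript types came from GENCODE release M21 (GRCm38, the assembly that mm10 names), matched by gene ID for 42462 of 43346 genes. The labels give 1 group, so levels are mean ± SD over the 2 libraries and no p-value was computed. Levels between genes were compared as TPM or log2(TPM + 0.1). Replicate ratios used expected counts, plus 0.5 for the log2 ratio of a gene, scaled by TMM in edgeR 4.0.16 (R 4.3.3), where the mean count reached 10. Intervals are exact 95% Poisson intervals of a count, or Clopper-Pearson intervals of the ratio of 2 counts rounded to whole numbers, and they cover counting error only, since the files hold no molecular identifiers. Precision therefore falls with the count of a gene. The ratio step was tested on simulated counts. Figures were drawn with matplotlib 3.10.9, and all else ran in Python 3.11.15 with scipy 1.17.1, pandas 2.3.3 and numpy 2.4.6. CpG ratios and motifs were computed on RefSeq promoter windows (GRCm38.p6).

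All Hox genes enter the counts and sums. A few genes, a Hox gene among them, are not reported here by name. Of each other list the 3 genes with the highest mean TPM and those at 1 TPM or more in a single library are named, with the 6 noncoding genes with most counts, all neighbours and all isoform genes. Genes named beyond that rule, among them Pknox2, the receptor genes, Hotair and markers at 0, were chosen after their values were seen. The members and all lists were chosen with earlier results of these data known, so their patterns are no independent support. Alternatives covered the level, counts against TPM, posterior mean TPM, the pseudocount, filters, the scaling (TMM, DESeq2 1.42.0 size factors, spike-ins), the number of neighbours and each replicate alone.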

Additional observations from a re-analysis of the deposited data

How the results depend on the processing

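The number of Hox genes at the level in both libraries was 1 at 1 TPM, 4 at 0.5 TPM, 0 at 2 TPM and 2 at 50 counts, and 1 to 2 in either library alone. The share of Hoxc was 14.6% by expected counts and 13.5% by posterior mean TPM, and that of Hoxd was 6.49% by posterior mean TPM. This measure gives small values to genes with no count and was also higher than TPM for Hoxd3 and Hoxd8. By posterior mean TPM groups 1 to 3 held 37.1% and groups 9 to 13 held 16.2%, and by counts groups 1 to 3 held 41.9%. With Hoxb2 as the only gene kept, by a minimum of 1 TPM in both libraries, Hoxb and groups 1 to 3 hold 100% and the other clusters and groups 0%. The leading genes' shares by posterior mean TPM were 18.0% (Hoxa5), 42.8% (Hoxb2), 25.7% (Hoxc4) and 43.7% (Hoxd3), and Hoxc4 held 31.8% by counts, where Hoxc5 led.

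The median log2 ratio of replicate 2 over replicate 1 was -0.54 with spike-in scaling, which moved the median of all genes to -0.64, so that Hox genes minus all genes stayed at 0.10, and 1 Hox gene was then more than 2-fold apart. At a mean count of at least 50 the median log2 ratio was -0.17, but only Hoxb2 (-0.67) and Hoxa5 (0.34) reached that count. The difference of Hox genes minus TALE genes was -5.25 with a pseudocount of 0.01, -1.85 with 1, -2.80 for genes with at least 0.1 TPM and, as an alternative chosen after the data were seen, -3.60 without the Hox genes that had no count. For Hox genes minus neighbours it was -8.71, -4.93, -6.36 with 1 neighbour a side, -6.74 with 5 and, chosen likewise, -7.02 without Hox genes at no count. Noncoding genes held 53.1% of TPM in the spans and so were above the Hox genes by TPM and below them by counts. Their TPM includes 2.40 and 2.67 TPM of Gm27477, which had 4 counts in each library. Hoxb2-201 held 86.9% by counts, and 9 genes had a leading transcript at 10 counts. The sign of the median replicate ratio, which was near 0, changed with spike-ins and at 50 counts. The minimum of 1 TPM turned Hoxa over Hoxb and groups 4 to 8 over groups 1 to 3 round, since it kept Hoxb2 alone. Over all results and settings, 37 values moved beyond the spread or beyond 1.5 times the count and 52 did not, and the causes were not tested beyond this. A minimum of 100 counts left no Hox gene for the 2-fold count.

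No paired analysis was possible because the series holds 1 group. Depth limits most members, since 37 of 39 Hox genes had fewer than 50 counts in at least 1 library.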

Other observations

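Genes that Hox proteins are known to regulate in blood, limb or mesenchyme had a median of 0.805 and 1.09 TPM. Of 14 listed, 5 were at 1 TPM or more in both libraries, led by Myb (15.5 TPM), Meis1 (10.5 TPM) and Pbx3 (8.06 TPM). Bcl2 (0.93 and 1.12 TPM), Bmp4 (0.88 and 1.13 TPM) and Mecom (0.73 and 1.06 TPM) reached the level in replicate 2 only, and 6 stayed below it in both. Those with little signal are known from limb, kidney and gut, with Shh at 0.02 and 0.08 TPM, Gdnf at 0.01 and 0 TPM and Six2 at 0 and 0.10 TPM. Myb, Meis1, Pbx3 and Mecom also stand in the lists of cofactors or of blood stem cell markers. The difference of medians, Hox genes minus these genes, was -2.65 ± 0.22 on the log2(TPM + 0.1) scale.

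The heart markers whose sum differed between the libraries were led by Actc1 (23.0 and 53.7 TPM), Myl7 (8.93 and 12.8 TPM) and Tnnt2 (3.82 and 17.2 TPM), and Myh6, Myh7, Nppa and Myl2 reached 1 TPM in replicate 2 only. Of 10 gut and pancreas markers, 2 were at 1 TPM or more in both libraries. Cela1 (5.51 TPM) and Barx1 (1.06 TPM) led them, and Cpa1 (0.46 and 1.27 TPM) reached the level in replicate 2 only.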
